A study of Mus musculus with 6 samples.

Results

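Claudins, the other proteins of the tight junction and cadherins hold the cells of kidney tubules and vessels together, and 52 of the 17680 genes measured belong to them by symbol: 23 claudins (Cldn with a number), 20 cadherins (Cdh with a number), and 9 other tight junction genes, among them Tjp1, Tjp3, Ocln, Marveld2, Marveld3, F11r, Cgn and Cgnl1. Their RNA was measured in bulk kidneys of wild-type C57BL/6 mice aged 6 to 8 weeks. The LPS group (3 mice) received lipopolysaccharide, a component of the outer membrane of Gram-negative bacteria, into the peritoneum, and the Control group (3 mice) received phosphate-buffered saline (PBS) in the same way. Kidneys were taken 24 h later, and the design text names septic kidney injury as the condition modelled. No dose and no sex is given in the sources used here.

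Claudins are 4-pass membrane proteins that seal the gap between neighbouring epithelial cells or line pores through it, and each stretch of the nephron makes its own set, which fixes how much sodium, chloride, calcium, magnesium and water passes between the cells there. Occludin, tricellulin and the junctional adhesion molecules sit beside them in the membrane, and the zonula occludens proteins and cingulins tie them to actin. Classical cadherins bind the same cadherin on the next cell in the presence of calcium and form the adherens junction just below the tight junction. Cdh13, Cdh16, Cdh17, Cdh23 and Cdh26 are not classical cadherins.

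The libraries held 31313181 to 33454344 counts in LPS kidneys and 29097558 to 31071170 counts in Control kidneys. Counts of the 52 genes made up 0.288% to 0.317% of the LPS libraries and 0.347% to 0.363% of the Control libraries. Levels are given as CPM, counts scaled to library size with TMM factors, within a gene, and as the deposited FPKM, which also divides by gene length, between genes. Marker sums and the level of a gene relative to them are the exception. They are in CPM, without correction for gene length, so long marker genes weigh more in them. LPS replicate 2 stood apart, with 3.65% of its counts in 8 seminal vesicle genes, against at most 0.00456% in every other library. Counts of changed claudin, tight junction and cadherin genes are therefore also given without it. Kidney markers were present in all libraries, but the level of many differed between the groups. Umod of the thick ascending limb averaged 4346 CPM in the LPS group and 4477 CPM in the Control group. Slc12a1 of the same segment averaged 251 CPM in the LPS group and 1488 CPM in the Control group. In bulk tissue, fewer cells of a type and less RNA per cell cannot be told apart.

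Of the 52 genes, 36 had enough counts to be tested. Among these, 12 were higher and 12 lower after LPS (quasi-likelihood test of edgeR, p adjusted by Benjamini-Hochberg over all 14219 genes tested, threshold 0.05), and 12 did not pass. Of all genes tested, 25.7% were called higher and 24.8% lower, together 50.5%. The median log2 fold change was 0.13 over the 36 genes and 0.01 over all genes tested, and the median size of the change, regardless of sign, was 0.54 over the 36 genes and 0.38 over all genes tested. Changes of at least 2-fold were called for 4 genes higher and 7 lower, where 8.24% and 9.62% of all genes tested were so called. For 26 of the 36 the CPM ranges of the groups were separate, against 60.2% of all genes tested. Without LPS replicate 2, 11 genes were higher and 12 lower, of which 4 and 6 changed at least 2-fold.

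**Figure D1:**
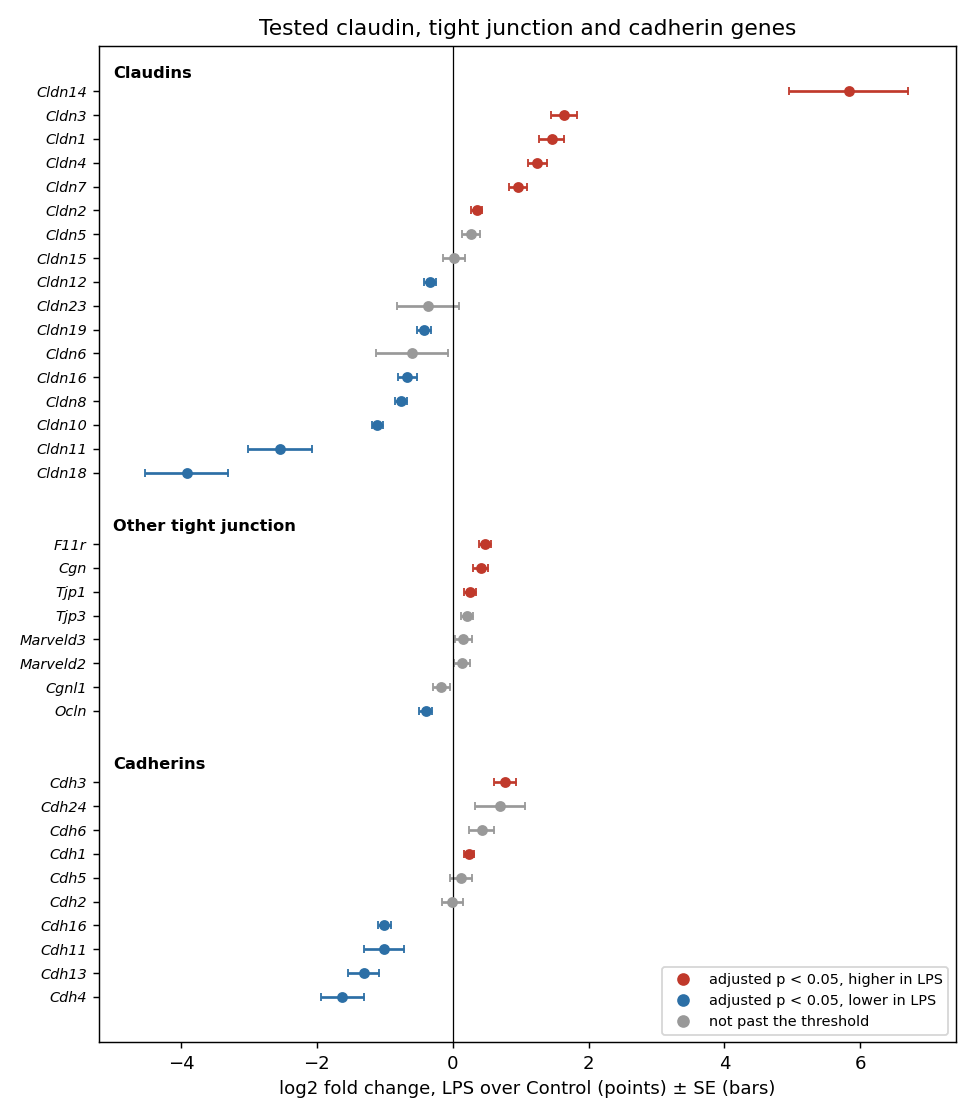
The log2 fold change (LPS over Control) of the tested genes named in the text, with its standard error as a bar and the colour giving the call. Claudins spread furthest to both sides, from Cldn18 to Cldn14, while the other tight junction genes lie within 1 unit of 0. The point of Cldn14 is fitted against 1 Control count and does not measure a fold.

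Claudins moved in both directions, 6 higher and 7 lower of 17 tested, where 50.5% of all genes tested were called, with the same numbers without LPS replicate 2. Their summed level overlapped between the groups, and its makeup differed. The 23 claudins together had 563, 569 and 577 FPKM in LPS kidneys, against 606, 590 and 548 FPKM in Control kidneys, and the groups overlapped. Cldn2, the cation and water pore of the proximal tubule, made up 46.8%, 40.7% and 40.5% of that sum in LPS kidneys, against 31.3%, 33.6% and 34.2% in Control kidneys. Cldn10 made up 14.9%, 15.4% and 14.9% in LPS kidneys, against 32.8%, 32.3% and 31.1% in Control kidneys. These claudins held almost equal shares in Control kidneys, 33.0% ± 1.54 for Cldn2 and 32.1% ± 0.887 for Cldn10 (SD, n = 3), and no longer did so in LPS kidneys, 42.7% ± 3.57 and 15.1% ± 0.277. Cldn3, Cldn4 and Cldn7 together took 16.1%, 22.3% and 22.8% in LPS kidneys, against 8.45%, 8.41% and 8.35% in Control kidneys. The share of Cldn8 was 5.57% ± 0.684 in LPS and 9.32% ± 0.399 in Control kidneys. Cldn4 ranked ahead of Cldn8, Cldn19 and Cldn12 in LPS kidneys at 8.69%, and after them in Control kidneys at 3.63%.

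**Figure D2:**
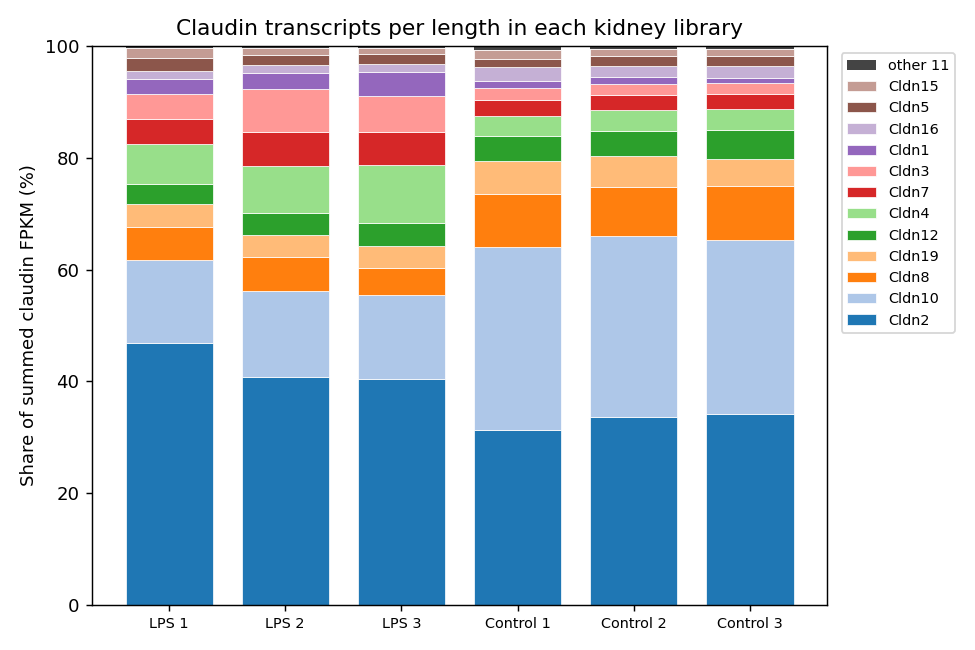
Share of each claudin in the summed claudin FPKM of a library, for the LPS and then the Control libraries, with the 11 least abundant claudins pooled. The segment of Cldn10 is 14.9% to 15.4% in LPS and 31.1% to 32.8% in Control libraries, and those of Cldn3, Cldn4, Cldn7 and Cldn1 are wider in every LPS library.

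The sequence before the start sites of claudins that moved in different directions is given here, to set the loci beside their values. RefSeq gives Cldn10 and Cldn7 more than 1 start site. The deposited counts are by symbol, so for Cldn10 the anion-selective form of the proximal tubule and the cation-selective form of the thick ascending limb are not separated here. Whether the counting annotation held both starts shown is not given. Each line is the 250 bases before an annotated start, 5′ to 3′ on the gene's strand, from RefSeq on GRCm38.p6. Capitals mark matches to TGANTCA (the AP-1 motif), TTCNNNGAA (the STAT motif) and TATAAA (the TATA box), searched on both strands.
Cldn2 (chrX:139800558-139800807, plus strand): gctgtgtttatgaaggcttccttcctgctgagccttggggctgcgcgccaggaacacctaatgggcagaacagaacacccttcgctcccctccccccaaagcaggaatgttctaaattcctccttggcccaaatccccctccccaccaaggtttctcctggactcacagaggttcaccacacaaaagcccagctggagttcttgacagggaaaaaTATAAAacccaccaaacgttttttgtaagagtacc
Cldn10 upstream start (chr14:118787621-118787870, plus strand): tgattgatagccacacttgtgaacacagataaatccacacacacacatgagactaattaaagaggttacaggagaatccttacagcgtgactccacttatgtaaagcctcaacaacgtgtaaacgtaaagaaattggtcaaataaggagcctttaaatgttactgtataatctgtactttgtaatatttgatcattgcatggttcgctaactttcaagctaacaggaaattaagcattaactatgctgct
Cldn10 downstream start (chr14:118854700-118854949, plus strand): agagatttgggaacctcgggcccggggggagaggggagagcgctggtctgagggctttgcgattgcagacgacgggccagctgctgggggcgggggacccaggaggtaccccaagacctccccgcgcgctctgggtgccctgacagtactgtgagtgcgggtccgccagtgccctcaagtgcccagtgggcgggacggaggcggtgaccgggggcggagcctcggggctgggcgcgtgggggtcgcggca
Cldn3 (chr5:134985964-134986213, plus strand): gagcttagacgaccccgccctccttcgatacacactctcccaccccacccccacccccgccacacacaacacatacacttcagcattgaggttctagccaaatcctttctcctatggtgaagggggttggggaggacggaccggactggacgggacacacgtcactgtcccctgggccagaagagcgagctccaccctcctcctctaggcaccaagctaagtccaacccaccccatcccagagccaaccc
Cldn4 (chr5:134946935-134947184, minus strand): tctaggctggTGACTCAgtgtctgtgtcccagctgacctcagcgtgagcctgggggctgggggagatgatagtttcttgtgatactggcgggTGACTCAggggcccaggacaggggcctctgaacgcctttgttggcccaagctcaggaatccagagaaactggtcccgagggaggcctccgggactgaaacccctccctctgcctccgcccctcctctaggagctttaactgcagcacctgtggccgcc
Cldn7 (chr11:69965171-69965420, plus strand): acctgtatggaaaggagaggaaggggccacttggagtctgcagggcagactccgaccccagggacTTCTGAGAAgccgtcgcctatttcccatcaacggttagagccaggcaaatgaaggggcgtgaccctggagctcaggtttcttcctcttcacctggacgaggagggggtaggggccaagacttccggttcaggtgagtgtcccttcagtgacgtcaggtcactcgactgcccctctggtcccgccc

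Cldn4 held TGANTCA at 2 places, Cldn2 held TATAAA once, and Cldn7 held TTCNNNGAA once before the start shown. The other Cldn7 window in RefSeq, at chr11:69964529-69964778, held none of these letters. In Cldn3 and in both Cldn10 windows none of these letters occurred. TGANTCA was found at least once in 6.75%, TTCNNNGAA in 7.02% and TATAAA in 12.4% of 32851 such RefSeq windows. Such windows were available for 36 of the 52 genes, 47 in all, of which 4 held the STAT motif and 3 the AP-1 motif. Beyond the sequences shown, the STAT motif lay before Cldn12, which fell, and Cldn14, which rose. The AP-1 motif lay before Cldn15, which did not pass, and F11r, which rose. The motif found in Cldn2 also lay before Marveld2, which did not pass. The share of windows with 2 matches was not computed, and each match is given as a description only. Cldn3 and Cldn4 are next to each other on chromosome 5, with no other coding gene between them in RefSeq.

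Among claudins of the proximal tubule and thin descending limb, Cldn2 rose and Cldn10 and Cldn12 fell. Cldn2 had 553, 494 and 502 CPM in LPS kidneys, against 391, 424 and 400 CPM in Control kidneys. Every LPS library lay above every Control library, at a log2 fold change of 0.35 ± 0.08 (SE, adjusted p = 0.00519). Cldn10 had 115, 122 and 122 CPM in LPS kidneys, against 269, 268 and 239 CPM in Control kidneys, and the groups were far apart. Its log2 fold change was -1.11 ± 0.08 (adjusted p = 8.19e-06). Cldn12, a claudin without the usual PDZ-binding tail that takes part in calcium passage, had 83.6, 92.4 and 101 CPM in LPS kidneys, against 112, 116 and 122 CPM in Control kidneys (log2 fold change -0.34 ± 0.09, adjusted p = 0.0118). All 7 markers of the proximal tubule fell, with a median log2 fold change of -2.18, and their summed level was 1947 to 2072 CPM in LPS and 11886 to 13459 CPM in Control kidneys. Cldn2 stood at 26.7%, 23.8% and 25.8% of that marker sum in LPS kidneys, against 3.29%, 3.16% and 2.97% in Control kidneys. For Cldn10 the same figures were 5.58%, 5.91% and 6.25% in LPS kidneys, against 2.26%, 1.998% and 1.77% in Control kidneys. These ratios use proximal tubule markers only, while the claudin counts also hold RNA of other segments, for Cldn10 that of the thick ascending limb. Of 3 thin limb markers 2 fell, with a median log2 fold change of -1.07, and Slc14a2 did not pass (-0.02). Ratios to the thin limb markers were not computed. The part of the marker change in these results was not tested.

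Claudins of the thick ascending limb were lower, except Cldn14 and Cldn3. Cldn16 and Cldn19 form the pore through which calcium and magnesium are taken back, and both fell. Cldn16 had 9.16, 9.75 and 9.69 CPM in LPS kidneys, against 17.7, 14.4 and 13.3 CPM in Control kidneys (log2 fold change -0.67 ± 0.14, adjusted p = 0.00308). Cldn19 had 20.8, 21.1 and 20.8 CPM in LPS kidneys, against 31.1, 29.1 and 23.8 CPM in Control kidneys (log2 fold change -0.42 ± 0.11, adjusted p = 0.0105). The LPS libraries were close to each other for both genes, and the Control libraries spread more. Cldn14, which blocks the Cldn16 and Cldn19 pore, had 16, 23 and 42 counts in LPS libraries, against 0, 1 and 0 counts in Control libraries. That is a ratio of 76.3 with an exact 95% binomial interval of 13.3 to 3050, and the gene passed the test with an adjusted p of 0.000568. At 0.428 FPKM on average in LPS kidneys, Cldn14 remained far below Cldn16 at 8.09 FPKM and Cldn19 at 23.2 FPKM. The fitted log2 fold change of Cldn14 was 5.83, and 7.74 without Control replicate 2, where the Control counts are 0 and the value measures no fold.

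Markers of the thick ascending limb fell in 3 of 4 cases, with a median log2 fold change of -1.09 and a sum of 4647 to 4861 CPM in LPS and 6183 to 6512 CPM in Control kidneys. Umod did not pass (log2 fold change -0.04). Umod alone made up 87.9% to 92.5% of that sum in LPS kidneys and 69.1% to 72.6% in Control kidneys. Against the sum, Cldn19 stood at 0.429%, 0.453% and 0.428% in LPS kidneys and at 0.494%, 0.447% and 0.385% in Control kidneys, and the groups overlapped. Cldn16 stood at 0.189%, 0.210% and 0.199% in LPS kidneys, against 0.281%, 0.221% and 0.215% in Control kidneys, with no overlap. Both comparisons turned round when Umod was left out, with 348 to 588 CPM in LPS and 1783 to 1910 CPM in Control kidneys for the sum of Slc12a1, Kcnj1 and Ptger3. Cldn19 then stood at 3.54%, 6.05% and 5.48% in LPS kidneys, against 1.67%, 1.63% and 1.25% in Control kidneys. Cldn16 stood at 1.56%, 2.80% and 2.55% in LPS kidneys, against 0.949%, 0.807% and 0.696% in Control kidneys. The level of these claudins relative to their segment thus has no single direction here. Casr, the calcium-sensing receptor of this segment that controls Cldn14, had 55.9, 45.5 and 39.0 CPM in LPS kidneys, against 132, 119 and 137 CPM in Control kidneys, and fell by 1.46 on the log2 scale (adjusted p = 2.3e-05).

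**Figure D3:**
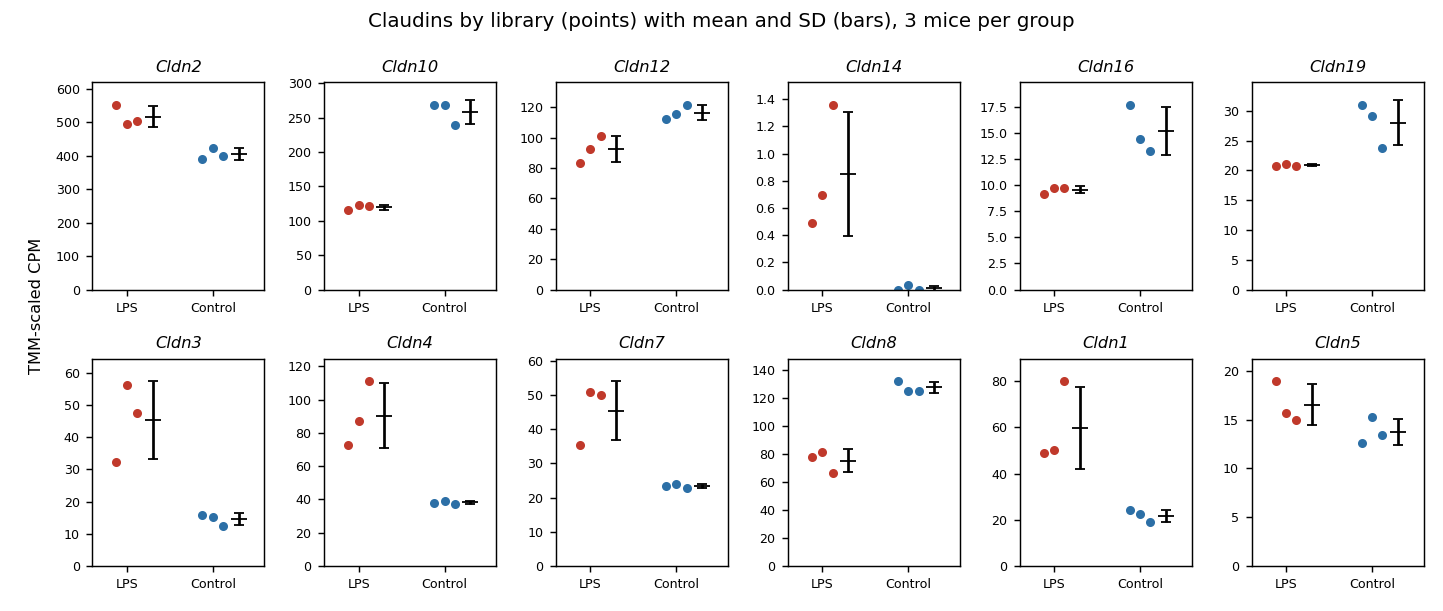
CPM of 12 claudins in each of the 3 LPS and 3 Control libraries (points), with mean and SD beside them. Cldn2, Cldn14, Cldn3, Cldn4, Cldn7 and Cldn1 are higher in every LPS library than in every Control library, Cldn10, Cldn12, Cldn16, Cldn19 and Cldn8 are lower, and Cldn5 overlaps.

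Claudins of the distal tubule and collecting duct went apart: Cldn3, Cldn4 and Cldn7 rose and Cldn8 fell. Cldn3, a sealing claudin, had 32.2, 56.3 and 47.7 CPM in LPS kidneys, against 16.0, 15.3 and 12.5 CPM in Control kidneys (log2 fold change 1.64 ± 0.19, adjusted p = 0.000132). Cldn4, which limits sodium passage, had 72.8, 86.9 and 111 CPM in LPS kidneys, against 38.1, 39.2 and 37.1 CPM in Control kidneys (log2 fold change 1.24 ± 0.14, adjusted p = 9.4e-05). Cldn7 had 35.5, 51.1 and 50.0 CPM in LPS kidneys, against 23.5, 23.9 and 22.8 CPM in Control kidneys (log2 fold change 0.96 ± 0.13, adjusted p = 0.000354). LPS replicate 1 was the lowest LPS library for all 3 genes and still lay above every Control library. Cldn8, which joins Cldn4 in the collecting duct to form a path for chloride, had 77.7, 81.4 and 66.1 CPM in LPS kidneys, against 132, 125 and 125 CPM in Control kidneys (log2 fold change -0.76 ± 0.09, adjusted p = 0.000166). Without LPS replicate 2 the log2 fold changes were 1.46 for Cldn3, 1.27 for Cldn4, 0.87 for Cldn7 and -0.82 for Cldn8.

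Principal cell markers fell in 3 of 6 cases and rose in 0, with a median log2 fold change of -0.52 and a sum of 616 to 849 CPM in LPS and 833 to 1038 CPM in Control kidneys. Cldn4 stood at 8.58%, 14.1% and 15.8% of that sum in LPS kidneys, against 3.66%, 4.01% and 4.46% in Control kidneys, and Cldn8 at 9.15%, 13.2% and 9.37% in LPS kidneys, against 12.7%, 12.8% and 15.01% in Control kidneys. The groups were separate for Cldn4 and overlapped for Cldn8. These ratios hold for the principal cell list only, and none to the other distal lists was computed. The sum of distal convoluted tubule markers was 409 to 685 CPM in LPS and 1005 to 1079 CPM in Control kidneys. For intercalated cell markers it was 140 to 160 CPM in LPS and 320 to 332 CPM in Control kidneys. Urothelium, the lining of the renal pelvis, also makes Cldn3, Cldn4 and Cldn7. Of its 5 markers 4 fell and 0 rose, and their sum was 19.8 to 26.4 CPM in LPS and 47.9 to 82.1 CPM in Control kidneys. The part of either marker list in the claudin changes was not tested.

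**Figure D4:**
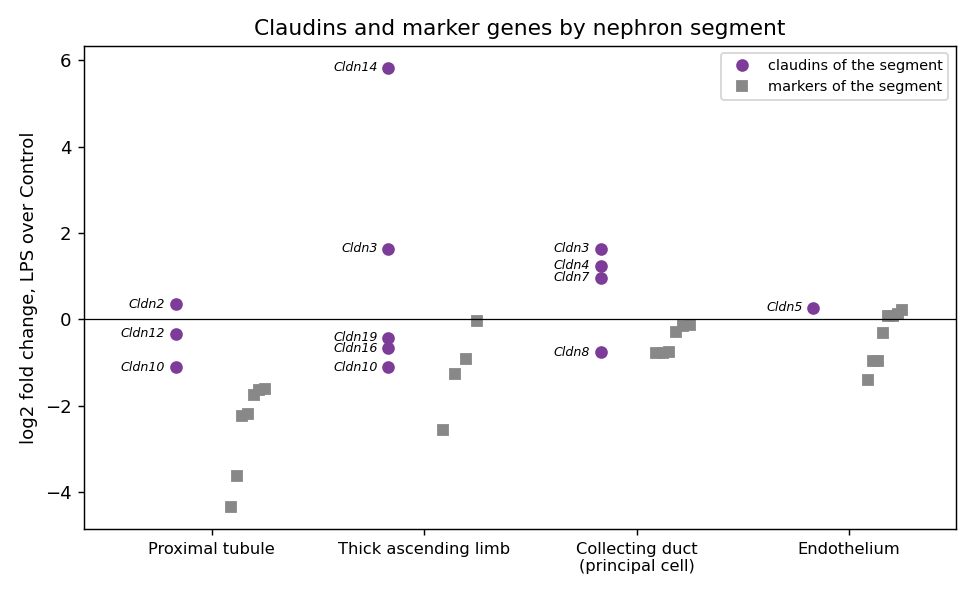
The log2 fold change (LPS over Control) of claudins, at the left of each column, and of marker genes of the same segment, at the right. All proximal tubule markers lie below Cldn2, Cldn12 and Cldn10, and principal cell markers lie below Cldn3, Cldn4 and Cldn7. Cldn10 and Cldn3 appear in 2 columns with the same value, and the value of Cldn14 is fitted against 1 Control count.

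Outside these segments, Cldn1 rose and Cldn5 did not pass. Cldn1, found in the parietal epithelium of Bowman's capsule, had 48.8, 50.3 and 80.2 CPM in LPS kidneys, against 24.0, 22.4 and 18.9 CPM in Control kidneys (log2 fold change 1.46 ± 0.19, adjusted p = 0.000244). LPS replicate 3 was the highest. Its neighbour on chromosome 16 is Cldn16, with no coding gene between them, and these neighbours moved in opposite directions. Cldn5, the claudin of endothelium, had 19.0, 15.7 and 14.97 CPM in LPS kidneys, against 12.6, 15.2 and 13.5 CPM in Control kidneys, which overlapped (log2 fold change 0.27 ± 0.13, adjusted p = 0.118). Cldn15, a cation pore known from the intestine, had 18.1, 13.2 and 12.4 CPM in LPS kidneys, against 16.5, 12.9 and 13.8 CPM in Control kidneys (log2 fold change 0.02 ± 0.17, adjusted p = 0.941).

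Some scarce claudins fell to near 0. Cldn11, known from myelin and Sertoli cells, had 0.860, 0.572 and 0.194 CPM in LPS kidneys, against 4.38, 2.57 and 2.63 CPM in Control kidneys (log2 fold change -2.54 ± 0.47, adjusted p = 0.00193). Cldn18, known from stomach and lung epithelium, had 1, 1 and 2 counts in LPS libraries, against 27, 23 and 12 counts in Control libraries (log2 fold change -3.92 ± 0.61, adjusted p = 0.00067). The groups did not overlap for either gene. Cldn6, a claudin of the immature kidney, and Cldn23 overlapped between the groups and did not pass, with log2 fold changes of -0.60 ± 0.53 and -0.37 ± 0.46. Another 6 claudins (Cldn9, Cldn13, Cldn17, Cldn20, Cldn22 and Cldn24) were too scarce to test, with 1 to 46 counts over all libraries together. The LPS libraries held 15 counts of Cldn9 and the Control libraries 31, and for Cldn22 the LPS libraries held 5 and the Control libraries 18.

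Of the 4 membrane proteins beside the claudins, F11r rose, Ocln fell and 2 did not pass. F11r, the junctional adhesion molecule JAM-A, had 132, 145 and 161 CPM in LPS kidneys, against 102, 106 and 105 CPM in Control kidneys (log2 fold change 0.48 ± 0.09, adjusted p = 0.00207). Ocln, occludin, fell, with 30.1, 34.1 and 36.0 CPM in LPS kidneys, against 41.8, 41.5 and 48.6 CPM in Control kidneys (log2 fold change -0.40 ± 0.10, adjusted p = 0.00765). Its chromosome 13 neighbour Marveld2, tricellulin, which seals the corners where 3 cells meet, had 20.2, 18.6 and 23.4 CPM in LPS kidneys, against 17.7, 20.5 and 18.4 CPM in Control kidneys, and did not pass (log2 fold change 0.14 ± 0.12). Marveld3, a relative of occludin, had 19.9, 24.3 and 19.7 CPM in LPS kidneys, against 21.2, 17.6 and 18.4 CPM in Control kidneys, and also overlapped (log2 fold change 0.16 ± 0.12).

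Among plaque genes, which link the membrane proteins to actin, Cgn and Tjp1 rose and Tjp3 and Cgnl1 did not pass. Cgn, cingulin, had 27.6, 32.3 and 34.7 CPM in LPS kidneys, against 25.2, 24.8 and 21.0 CPM in Control kidneys (log2 fold change 0.41 ± 0.11, adjusted p = 0.0135). Tjp1, which encodes ZO-1, had 94.2, 103 and 89.6 CPM in LPS kidneys, against 86.0, 71.7 and 82.4 CPM in Control kidneys. Its log2 fold change of 0.25 ± 0.09 passed narrowly (adjusted p = 0.0456) and lost its call in 10 of 17 alternatives, in which the adjusted p reached 0.166. These include the fit without LPS replicate 2 (adjusted p = 0.148). Tjp3, which encodes ZO-3, had 24.7, 27.0 and 24.7 CPM in LPS kidneys, against 23.2, 22.1 and 20.8 CPM in Control kidneys, and did not pass (log2 fold change 0.21 ± 0.09, adjusted p = 0.0791). Cgnl1, paracingulin, had 558, 409 and 403 CPM in LPS kidneys, against 515, 495 and 527 CPM in Control kidneys (log2 fold change -0.17 ± 0.13, adjusted p = 0.300). LPS replicate 1 was the highest library for Cgnl1, and its omission gave a log2 fold change of -0.33 (adjusted p = 0.00775).

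Of 10 cadherins tested 2 rose and 4 fell, with the same counts without LPS replicate 2. These 6 calls of 10 are near the 50.5% called among all genes tested. The most abundant were Cdh16 and Cdh1, and of this pair Cdh16 fell and Cdh1 rose. Cdh16, Ksp-cadherin of the basolateral tubule membrane, averaged 185 ± 20.4 FPKM in LPS kidneys and 374 ± 4.46 FPKM in Control kidneys (SD, n = 3). In CPM it had 667, 544 and 607 in LPS kidneys, against 1200, 1236 and 1212 in Control kidneys (log2 fold change -1.004 ± 0.09, adjusted p = 2.4e-05). Relative to the summed proximal tubule markers it stood at 32.3%, 26.3% and 31.2% in LPS kidneys, against 10.1%, 9.21% and 9.01% in Control kidneys. Without Slc34a1 in that sum, Cdh16 stood at 40.5%, 33.6% and 39.1% in LPS kidneys, against 16.3%, 15.6% and 15.2% in Control kidneys. The median log2 fold change was -2.18 for these markers, -1.09 for thick ascending limb, -1.08 for distal convoluted tubule and -0.52 for principal cell markers. Ratios of Cdh16 to other segments were not computed. Cdh1, E-cadherin, averaged 67.7 ± 2.90 FPKM in LPS and 57.9 ± 1.82 FPKM in Control kidneys. It had 309, 288 and 307 CPM in LPS kidneys, against 252, 251 and 265 CPM in Control kidneys, a small rise without overlap (log2 fold change 0.24 ± 0.07, adjusted p = 0.0230). That call ended without LPS replicate 3 (adjusted p = 0.0518), Control replicate 1 (0.0694) or Control replicate 2 (0.0887).

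**Figure D5:**
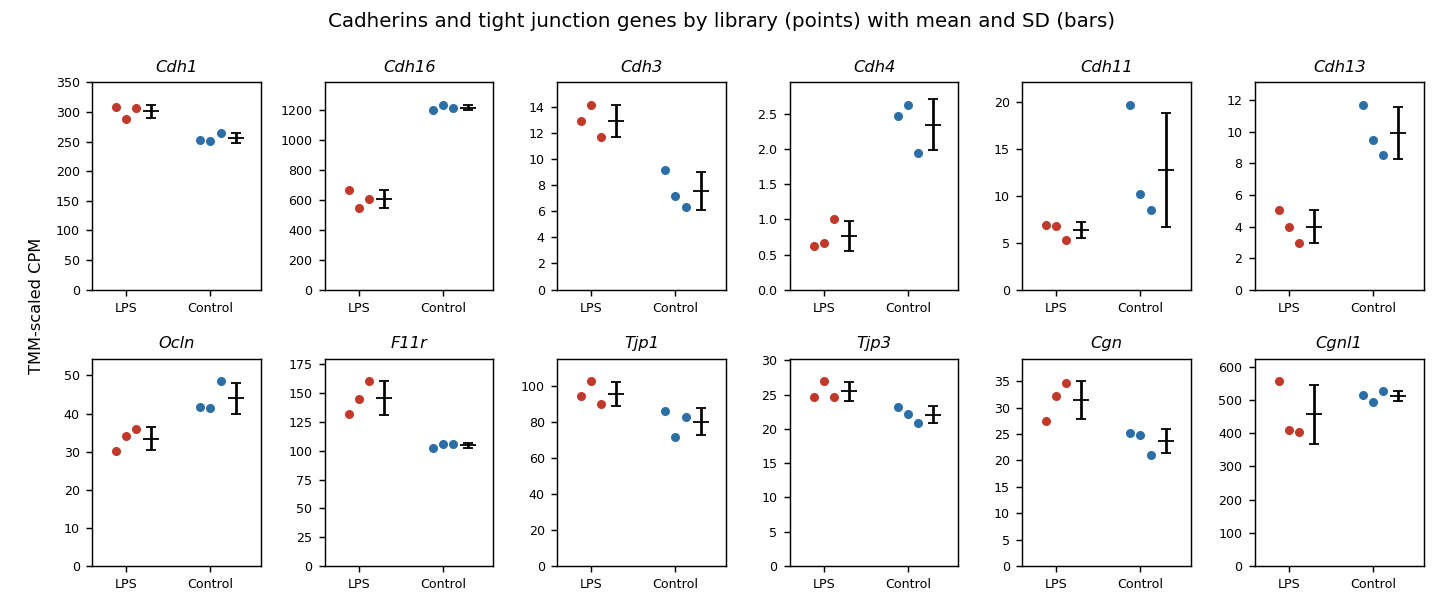
CPM of 6 cadherins and 6 other tight junction genes in each LPS and Control library (points), with mean and SD beside them. Cdh16 is 544 to 667 in LPS and 1200 to 1236 in Control libraries, and Cdh1 is 288 to 309 in LPS and 251 to 265 in Control libraries.

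Next to Cdh1 on chromosome 8 lies Cdh3, P-cadherin, which also rose, at 12.9, 14.2 and 11.7 CPM in LPS kidneys, against 9.19, 7.20 and 6.35 CPM in Control kidneys (log2 fold change 0.77 ± 0.16, adjusted p = 0.00388). Cdh2, N-cadherin, had 7.90, 7.25 and 8.88 CPM in LPS kidneys, against 7.19, 8.11 and 8.78 CPM in Control kidneys (log2 fold change -0.00 ± 0.15). Cdh6, known from the proximal tubule and the forming nephron, had 17.1, 15.3 and 15.3 CPM in LPS kidneys, against 15.5, 8.79 and 11.3 CPM in Control kidneys (log2 fold change 0.42 ± 0.19, adjusted p = 0.0904). Without Control replicate 1, its highest Control library, Cdh6 had a log2 fold change of 0.66 (adjusted p = 0.00745).

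Among the remaining cadherins, Cdh13, Cdh11 and Cdh4 fell and Cdh5 did not pass. Cdh5, VE-cadherin of endothelium, had 41.4, 41.9 and 27.2 CPM in LPS kidneys, against 38.1, 30.5 and 33.4 CPM in Control kidneys, and did not pass (log2 fold change 0.12 ± 0.16, adjusted p = 0.574). Of 8 endothelial markers 3 fell and 0 rose, and their sum was 354 to 437 CPM in LPS and 465 to 615 CPM in Control kidneys. Cdh13, T-cadherin, which is held in the membrane by a lipid anchor, had 5.07, 3.94 and 2.95 CPM in LPS kidneys, against 11.7, 9.48 and 8.55 CPM in Control kidneys (log2 fold change -1.31 ± 0.22, adjusted p = 0.00116). Cdh11, known from mesenchyme, had 6.85, 6.77 and 5.31 CPM in LPS kidneys, against 19.7, 10.2 and 8.45 CPM in Control kidneys. Control replicate 1 was the highest of these, and the log2 fold change of -1.01 ± 0.30 (adjusted p = 0.0186) lost its call without LPS replicate 3 (adjusted p = 0.0639). Cdh4, R-cadherin, had 0.615, 0.662 and 1.00 CPM in LPS kidneys, against 2.47, 2.64 and 1.94 CPM in Control kidneys (log2 fold change -1.63 ± 0.32, adjusted p = 0.0024). Stromal and vascular muscle markers fell in 2 of 6 cases and rose in 0, with a sum of 218 to 322 CPM in LPS and 290 to 435 CPM in Control kidneys. Their part and that of the endothelial markers in these results was not tested. Cdh24, a type II cadherin at 0.875 to 1.17 CPM in LPS and 0.423 to 0.869 CPM in Control kidneys, did not pass (log2 fold change 0.70 ± 0.37). Another 10 cadherins (Cdh9, Cdh10, Cdh15, Cdh17, Cdh18, Cdh19, Cdh20, Cdh22, Cdh23 and Cdh26) had 1 to 28 counts over all libraries and were not tested. Among them, Cdh17 reached 15 counts over the LPS libraries and 3 over the Control libraries.

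Other genes of cell junctions were counted in 5 lists of 76 genes. Of 72 tested, 23 were higher and 19 lower, with a median log2 fold change of -0.00. Beside these counts and those of each list, 25.7% of all genes tested were called higher and 24.8% lower, together 50.5%. Among 12 tested catenins, nectins and partners, 5 rose and 2 fell. Nectin1, an adhesion protein of the adherens junction, had 93.3, 79.4 and 89.4 CPM in LPS kidneys, against 21.3, 21.8 and 20.7 CPM in Control kidneys (log2 fold change 2.04 ± 0.08, adjusted p = 2.6e-07), and Nectin2 rose by 0.63. Nectin3 fell (log2 fold change -0.41 ± 0.08, adjusted p = 0.00197). Ctnna2, the neural alpha-catenin, reached 0 counts over the LPS libraries and 82 over the Control libraries. Ctnna1, a far more abundant alpha-catenin, rose (log2 fold change 0.31 ± 0.08, adjusted p = 0.00794), as did Afdn (0.40 ± 0.09) and Vcl (0.30 ± 0.10). The catenins that bind cadherin tails, Ctnnb1 (log2 fold change 0.11), Ctnnd1 (0.05) and Jup (0.00), did not pass. Of 8 other tight junction membrane genes 6 rose and 1 fell, with a median log2 fold change of 0.55. They included Igsf5 (log2 fold change 0.95 ± 0.10), Cxadr, the coxsackievirus and adenovirus receptor (0.67 ± 0.08), and the angulin Ildr1 (0.38 ± 0.07).

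Desmosome genes rose in 3 and fell in 2 of 9 tested, among them Pkp2 (log2 fold change 0.50), Pkp4 (-0.52) and Evpl (-1.23). Among 24 tested genes of the polarity complexes, which place the junction between apical and basal membrane, 5 rose and 7 fell, with Prkcz, an atypical protein kinase C, at -1.01 ± 0.07, Lin7a at -2.10 ± 0.33 and Amot at 0.44 ± 0.07. Of 19 transcription factors, receptors and kinases that act on the junction, 4 rose and 7 fell. Elf3, an epithelial transcription factor, had 99.2, 84.7 and 76.7 CPM in LPS kidneys, against 30.8, 26.8 and 23.4 CPM in Control kidneys (log2 fold change 1.69 ± 0.12, adjusted p = 8.2e-06). Ybx3, the ZO-1-associated factor ZONAB, rose by 0.92 ± 0.07. Snai1, Zeb1 and Twist1, repressors of Cdh1, did not pass, and Snai2 (log2 fold change -1.85 ± 0.32) and Zeb2 (-0.37 ± 0.08) fell.

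Among other cell types, markers rose for neutrophils in 6 of 6 tested, with a sum of 67.5 to 97.1 CPM in the LPS group and 2.86 to 3.55 CPM in the Control group. Markers fell in 4 of 4 cases for the distal convoluted tubule, 5 of 5 for intercalated cells and 2 of 6 for podocytes, and macrophage markers rose in 3 and fell in 1 of 6. Their part in the values above was not tested.

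Reads that overlap a gene on the other strand could raise or lower some values, since the strand setting of the counting is not given in the sources used here. In GENCODE M21, Cldn3 shares 40 exon bases with the antisense gene Wbscr25, Cldn19 shares 90 with Gm12927 and Tjp3 shares 40 with Apba3. Cldn22 shares 995 with Wwc2, beside a gene length of 994 bases in the deposited FPKM, so its few counts could be affected over the whole gene.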

How the data were processed

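For every kidney library the authors deposited raw counts and FPKM by gene symbol. Tools listed without a role, per the submitters' processing notes, are DESeq2, HTSeq, SAMtools, HISAT2 and R 3.2.0. TRIzol extraction preceded VAHTS Universal V6 library preparation, per the labels' protocols. The sources used here do not give genome build, annotation or strand setting. The deposited FPKM equal count over gene length and library total in 97602 of 97605 values above 0 (relative tolerance 1e-06).

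edgeR 4.0.16 (R 4.3.3) was run on the counts. Its filterByExpr step (minimum count 10, minimum total 15) kept 14219 of 17680 genes, TMM factors scaled them, and the quasi-likelihood test, 2-sided, set LPS against Control. Adjusted p-values are Benjamini-Hochberg values over all genes kept, with 0.05 as the threshold, and the standard error (SE) is the size of the log2 fold change over the square root of the F statistic. Groups follow the sample titles, and replicates of a group differed by more than sampling noise (chi-square of at least 11.1 per degree of freedom). P-values measure the spread between these mice, and intervals cover counting error only. The labels name no batch.

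Members and lists were chosen with earlier results of these data known. By rule, tested members that passed the threshold or reached a mean FPKM of 1 in a group have their value in every library, and of each other list the 3 genes with the smallest p may be named; further genes were chosen after their values were seen. The 17 alternatives used RLE factors, library sizes alone, no filter, genes averaging 1 CPM or more, DESeq2 1.42.0, limma-voom (limma 3.58.1), limma with log2(FPKM + 0.1), with log2(FPKM + 1), or with log2(FPKM + 1) only for genes averaging 1 FPKM or more, a replicate block, omission of genes over 32-fold higher in LPS replicate 2, and omission of each library. Marker sums without their most abundant gene were added after seeing the data. Promoter sequences matched 36 of 52 genes by symbol. Cdh7, Cdh8 and Cdh12 are not analysed here, and 1 tight junction gene is counted but not reported here.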

Additional observations from a re-analysis of the deposited data

How the results depend on the processing

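Of the 36 tested genes, 31 kept direction and side of the threshold in every alternative that tested them. Cdh1, Cdh11 and Tjp1 lost their call in at least 1 alternative, Cdh6 and Cgnl1 gained one, and 0 reversed. All 13 claudin calls were kept wherever the gene was tested. With a mean FPKM of at least 1, limma called 1 cadherin lower in place of 4 and, like limma on log2(FPKM + 1) of all genes, 3 members at least 2-fold lower in place of 7, since the pseudocount shrinks low values and the filter tests fewer genes. Leaving out 1 library gave 1 to 2 cadherins higher (1 without LPS replicate 3 or Control replicate 2) and 1 to 2 other tight junction genes lower (2 without LPS replicate 1). It gave 10 to 12 members higher and 11 to 13 lower, against 12 and 12. Over all genes it gave 3077 to 3666 higher and 3010 to 3490 lower, against 3658 and 3527.

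The replicate numbers share no source in the labels, and same-numbered libraries did not deviate together (correlations of 0.05, -0.05 and -0.00), nor did every library correlate best with its own number. With the number as a replicate block, 11 members were higher and 12 lower: Cdh1 (adjusted p = 0.0532) and Tjp1 (0.0718) lost their calls and Cdh6 gained one (0.0358). Over all genes the block gave 3414 higher and 3331 lower. Relative to the summed markers of the thick ascending limb, the ratio of LPS to Control was 0.834 for Cldn16 and 0.989 for Cldn19, and 2.82 and 3.32 without Umod, a setting chosen after seeing the data. Without the most abundant marker, the other segment ratios kept their direction. Those to the proximal tubule markers shrank, from 8.11 to 6.14 for Cldn2, 2.94 to 2.23 for Cldn10 and 3.17 to 2.40 for Cdh16. The 16 untested genes had at most 46 counts each over all libraries, and limited depth and low expression cannot be told apart for them.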
